A study of Rattus norvegicus with 6 samples.

Results

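The integrated and unfolded protein stress response was followed through 10 genes, all probe sets whose platform annotation gave 1 symbol among Ddit3, Atf4, Atf5, Xbp1, Trib3, Asns, Herpud1, Sesn2, Ppp1r15a and Eif2ak3. They were selected by symbol, with earlier results of these data known, and are 10 of the 14217 genes that the annotation names in this way. The 10 genes had 13 probe sets, 3 for Trib3, 2 for Sesn2 and 1 for each other gene. RNA came from retinal ganglion cells, which send the eye's signals to the brain through the optic nerve. The animals were 3 rats, all adult males of the Brown Norway strain, with a model of glaucoma. In every rat the cells of both eyes had been labelled with Fluorogold from the superior colliculus, hypertonic saline had raised the pressure in 1 eye for 10 days, and laser capture then took 2000 cells from each retina. The arrays form a group of left eyes (OS, n = 3) and a group of right eyes (OD, n = 3). The labels do not say which eye had raised pressure, so each group may hold treated and fellow eyes, and no difference below has a direction with respect to pressure.

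When misfolded proteins gather in the endoplasmic reticulum, or amino acids run short, cells slow translation by phosphorylating the initiation factor eIF2. The kinase PERK, encoded by Eif2ak3, does this for the endoplasmic reticulum, and a few mRNAs, Atf4 and Atf5 among them, are then translated more. Their products and the factor made from Xbp1 mRNA after it is spliced by IRE1 switch on genes for amino acid supply, protein folding and disposal. In long stress they also switch on Ddit3, which encodes CHOP, a factor known for its part in the death of neurons, in mice also of retinal ganglion cells after injury to the optic nerve. Most of this control acts on translation, splicing and phosphorylation, which RNA levels do not show.

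The values are array intensities on a linear scale, with no detection calls, and the mean after trimming 2% at each end was the same on every array to within 0.1 units, 500.056 to 500.105. The 95th percentile of 27 control probe sets for Bacillus subtilis transcripts served as each array's control limit and lay between 260.5 and 590.8. It was 399.6, 546.6 and 409.2 on the OS arrays and 260.5, 590.8 and 292.9 on the OD arrays of rats 1, 2 and 3. Of the 10 ganglion cell markers, all had a lower mean in OS, and 5 exceeded the limit on all 6 arrays. Their summed intensity was 8731 to 9201 in OS and 16112 to 23552 in OD. The 6 amacrine markers summed to 10092 to 16034 in OS and 23637 to 62352 in OD, and the 4 pigment epithelium markers to 1806 to 3124 in OS and 5075 to 17931 in OD. The sums overlapped between eyes for 5 photoreceptor, 6 Mueller glia and astrocyte, 6 microglia, 3 bipolar and 3 endothelial markers, and no marker was at 0 on all arrays. Markers above the limit on all 6 arrays numbered 3 for amacrine, 3 for Mueller glia and astrocyte, 1 for photoreceptor and 1 for bipolar cells. For pigment epithelium, microglia and endothelium there were 0, so those sums lie partly near the limit. The beta-actin control signal from the 3′ end over that from the 5′ end differed by 1.32 ± 0.52 (log2, SD, n = 3 rats), OS being the higher in each rat. For the Gapdh control the same difference was -0.46 ± 1.86, with mixed directions (0.29, 0.90 and -2.58 in rats 1, 2 and 3). What these shifts contribute to the differences below was not tested, and fewer cells of a type cannot be told apart from less RNA per cell.

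Letters of known stress response elements occurred in the promoter windows of 4 members, shown here because such elements are how this pathway's factors are known to recognise their targets. A match is a description and not a bound site. The windows are RefSeq's, from 250 bases before to 50 after each gene's start on build GRCr8, and all 10 members had one. The search covered both strands for the C/EBP-ATF element TGATGNAA, the endoplasmic reticulum stress element (CCAAT and CCACG with 9 bases between), its second form (ATTGG and CCACG with 1 base between), the cyclic AMP response element TGACGTCA and the XBP1-binding letters TGACGTGG. No matches overlapped each other. Capitals mark the match, and each line reads 5′ to 3′ along the gene's strand.
Trib3, C/EBP-ATF element in reverse, chr3:161275527-161275574, minus strand: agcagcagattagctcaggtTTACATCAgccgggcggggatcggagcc
Herpud1, C/EBP-ATF element in reverse, chr19:10614864-10614911, minus strand: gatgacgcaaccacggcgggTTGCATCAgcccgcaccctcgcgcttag
Herpud1, second form of the stress element, chr19:10614801-10614851, minus strand: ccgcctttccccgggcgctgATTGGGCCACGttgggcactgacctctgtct
Xbp1, stress element, chr14:84604538-84604596, plus strand: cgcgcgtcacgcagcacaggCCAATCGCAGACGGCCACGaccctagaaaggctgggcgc
Ppp1r15a, cyclic AMP response element, chr1:105139635-105139682, minus strand: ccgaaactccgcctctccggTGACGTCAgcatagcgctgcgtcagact
Of all 33469 windows in the table, 3.98% held the C/EBP-ATF element, 0.0657% the stress element, 0.0508% its second form, 1.83% the cyclic AMP response element and 0.595% the XBP1-binding letters. The last had no match among the members, and Ddit3, Atf4, Atf5, Asns, Sesn2 and Eif2ak3 held none of the 5. The search took exact letters in a short window, so a gene without a match may still hold such an element elsewhere or in other letters. Whether the matches bear on the values below was not tested.

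No member bright enough to test differed between the eyes past the threshold, which very few of all tested probe sets passed. The eyes' values did not overlap for Atf5 and the dimmer Sesn2 probe set, higher in OS, or for Ddit3 and the untested Ppp1r15a, lower in OS. Every OS value of Ppp1r15a was below its control limit, and that Sesn2 probe set exceeded the limit on 1 of 3 OD arrays. Of the 13 probe sets, 7 were bright enough to be tested, for 6 genes, and 0 of them passed an adjusted p of 0.05 by limma with rat as a block, where 0.0129% of all 15521 tested probe sets did. At an unadjusted p under 0.05 there were also 0 of 7, against 6.91% of all tested (2.6% higher and 4.31% lower in OS). With 7 probe sets, counts of 0 lie near these shares and say little about the members. Differences are OS minus OD on the log2(intensity + 16) scale, which understates changes of dim probe sets. The 6 other probe sets, for Eif2ak3, Ppp1r15a, Asns, Herpud1 and the dimmer 2 of Trib3, did not reach the filter (a mean log2 value of at least 8.12), and their values are given without a test. Of the 78 values of the members, 51 exceeded the control limit of their array, and 3 of the 13 probe sets, those of Atf4, Trib3 (1386321_s_at) and Sesn2 (1391607_at), exceeded it on all 6.

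**Figure D1:**
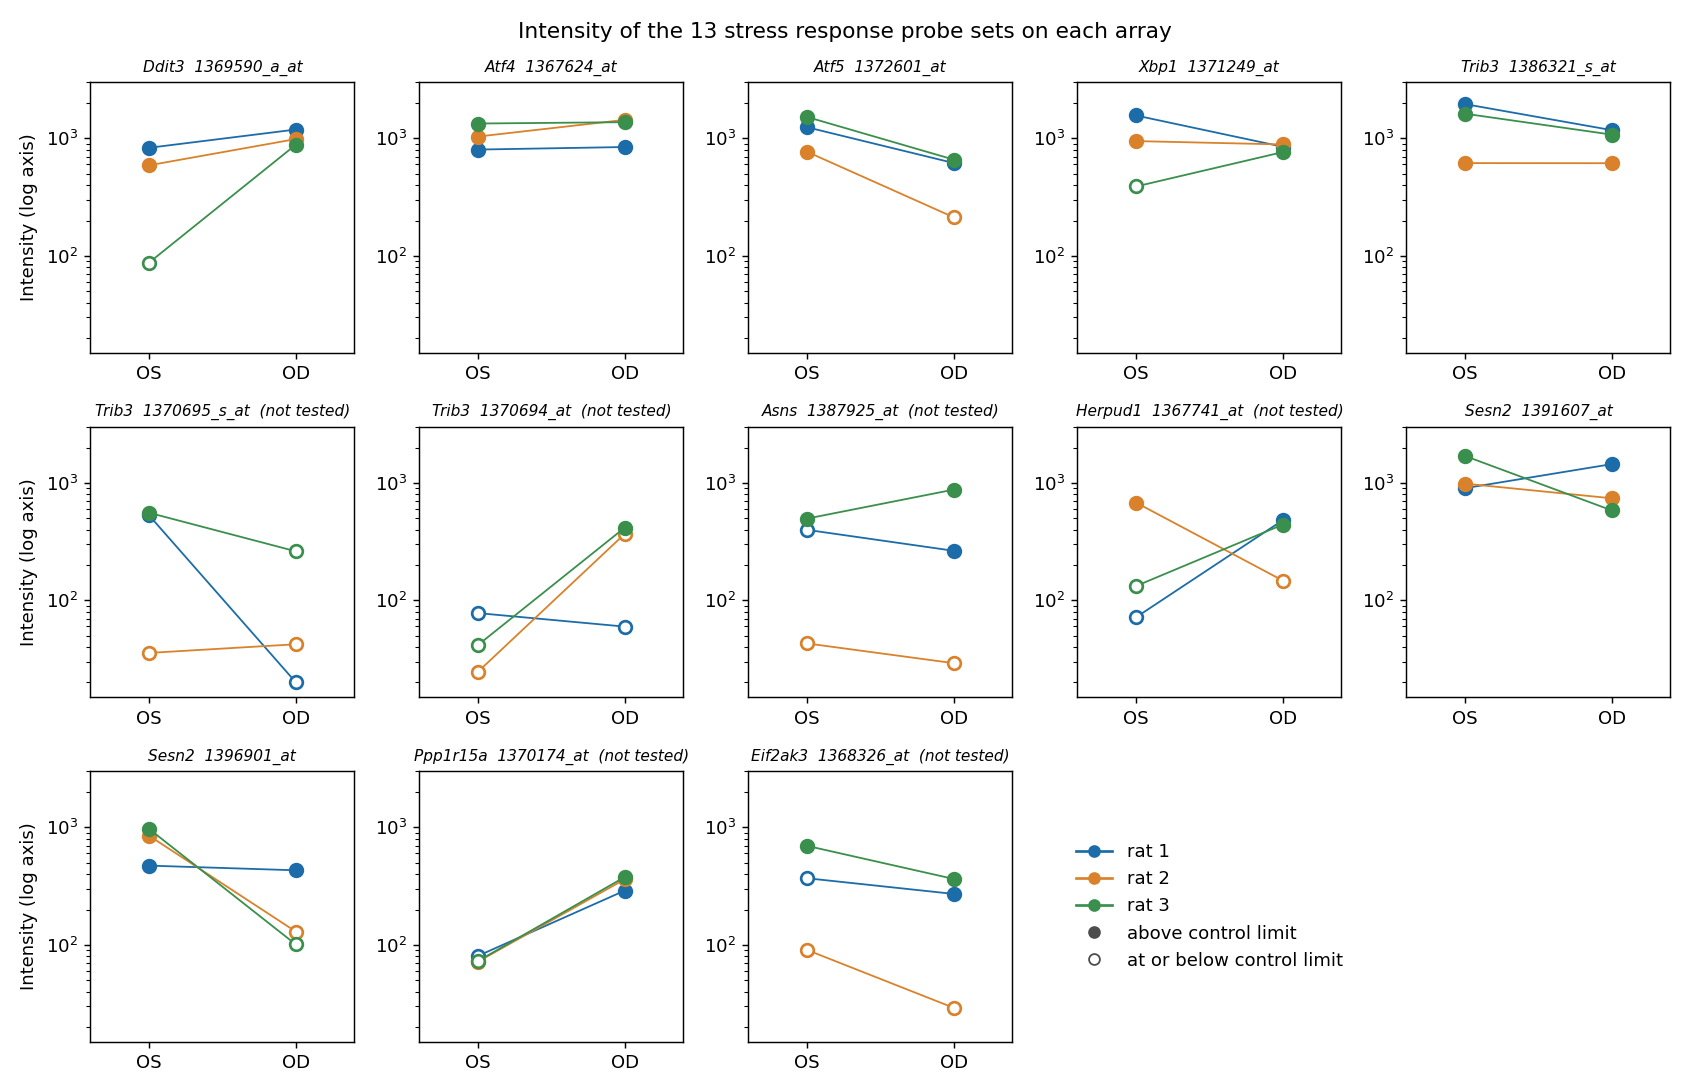
Intensity (log axis, deposited units) of each of the 13 probe sets on the OS and OD array of each rat, with a line joining the eyes of a rat, filled points above the array's control limit and open points at or below it. Atf5 lay higher on the OS array of each rat, and the OS values of Ppp1r15a were lower than those of OD and below the control limit on all 3 arrays.

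Eif2ak3 (1368326_at), the gene of the sensor kinase PERK, had 369.1, 90.5 and 696.2 in OS and 271.4, 29.1 and 364 in OD for rats 1, 2 and 3. The OS array was the higher in each rat, but the groups overlapped, because rat 2 was low in both eyes. The difference was 0.86 ± 0.41 (SD, n = 3 rats), and 1 of 3 OS arrays and 2 of 3 OD arrays exceeded the control limit. Ppp1r15a (1370174_at) encodes the subunit that directs protein phosphatase 1 to eIF2 and so ends the block of translation. Its intensity was 80.6, 72 and 72.9 in OS and 289.7, 361.7 and 377.8 in OD. The groups did not overlap. None of the 3 OS arrays exceeded the control limit, against 2 of 3 OD arrays, so OS has only a bound. Set against the limit on the OS arrays, the bound on OD over OS lay under 1, and no fold is given. Without the brightness filter, limma gave Ppp1r15a an adjusted p of 0.858 and Eif2ak3 one of 0.948.

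Among the transcription factors, Atf4 and Atf5 are the relatives whose translation rises when eIF2 is phosphorylated. Atf4 (1367624_at) had 803.1, 1036.7 and 1338.2 in OS and 844.3, 1437.3 and 1374.1 in OD. Each OS value was the lower, by little in rats 1 and 3 (-0.07 and -0.04) and by -0.47 in rat 2, and the groups overlapped. Its difference was -0.19 ± 0.24 (SD, n = 3 rats), with a 95% interval of -1.33 to 0.95 and an adjusted p of 0.958 by limma, and the mean was -0.05 without rat 2. Atf5 (1372601_at) had 1244.4, 769.3 and 1521.7 in OS and 616.7, 212.9 and 659.5 in OD. Every OS value was above every OD value. Its difference was 1.32 ± 0.41 (SD, n = 3 rats), or 2.50-fold, with a 95% interval of -0.04 to 2.68, and missed the threshold (limma adjusted p = 0.730). The OD value of rat 2 lay below the control limit, so the size is uncertain in that rat.

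Ddit3 (1369590_a_at), the CHOP gene, had 831.4, 589.8 and 87.5 in OS and 1189.2, 986.7 and 882.7 in OD. No OS value reached the lowest OD value, and the OS array of rat 3 stood far below the others and below its control limit. The differences in rats 1, 2 and 3 were -0.51, -0.73 and -3.12, with a mean of -1.45 ± 1.45 (SD, n = 3 rats). It missed the threshold (95% interval -3.01 to 0.11, limma adjusted p = 0.735), and without rat 3 the mean was -0.62. Xbp1 (1371249_at), whose mRNA is spliced into the form that encodes the active factor, had 1566.7, 948.5 and 389.6 in OS and 848.5, 887.8 and 764.5 in OD. The OS values spread to either side of the OD values, which lay close together, and that of rat 3 was below the control limit. Its difference was 0.01 ± 0.91 (SD, n = 3 rats), with a 95% interval of -1.30 to 1.32 (limma adjusted p = 0.999), and it turned to -0.43 without rat 1 and -0.04 without rat 2. The deposited value does not separate spliced from unspliced Xbp1 mRNA.

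Of the genes these factors are known to switch on, Trib3 encodes a pseudokinase that binds and restrains ATF4 and CHOP. Its brightest probe set (1386321_s_at) had 1957.7, 616.2 and 1621.8 in OS and 1175.3, 614.7 and 1076.7 in OD. The eyes of rat 2 were level and OS was higher in rats 1 and 3, and the groups overlapped. The difference was 0.44 ± 0.38 (SD, n = 3 rats, 95% interval -0.72 to 1.59, limma adjusted p = 0.888). Trib3's other probe sets disagreed with each other. For 1370695_s_at the values were 530, 35.7 and 556.9 in OS and 20.1, 42.3 and 261.7 in OD, and for 1370694_at they were 77.9, 24.7 and 41.7 in OS and 59.8, 368.4 and 416.2 in OD. The first was higher in OS in 2 of 3 rats and the second lower in 2 of 3. Of these 12 values, 3 exceeded the control limit, none of them in OD for 1370695_s_at or in OS for 1370694_at, and the bounds lay under 1, so no fold is given.

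Sesn2 encodes a stress-induced sestrin that restrains the growth kinase mTORC1. Its brighter probe set (1391607_at) had 901.7, 985.3 and 1694.1 in OS and 1444.8, 739.5 and 583 in OD. OS was lower in rat 1 and higher in rats 2 and 3, and the mean was 0.42 ± 1.09 (SD, n = 3 rats, 95% interval -0.83 to 1.66, limma adjusted p = 0.905). It turned to -0.13 without rat 3. The dimmer one (1396901_at) had 472.7, 849.9 and 971.1 in OS and 431.3, 129.8 and 100.9 in OD. Here every OS value was above the highest OD value, though rat 1 was nearly level between its eyes. Its difference was 1.93 ± 1.58 (SD, n = 3 rats, 95% interval -0.08 to 3.93, limma adjusted p = 0.730). This probe set exceeded the control limit on 3 of 3 OS arrays and on 1 of 3 OD arrays, that of rat 1. The mean of both Sesn2 probe sets differed by 1.17 (limma adjusted p = 0.796).

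Asns (1387925_at), the asparagine synthetase gene, had 398.4, 43 and 496.6 in OS and 264.2, 29.2 and 876.6 in OD. Rat, more than eye, ordered these values, with both arrays of rat 2 the lowest. The difference between eyes was 0.05 ± 0.74 (SD, n = 3 rats). Herpud1 (1367741_at), whose product helps to clear misfolded proteins from the endoplasmic reticulum, had 71.8, 679.4 and 132.5 in OS and 481.1, 147.4 and 441.7 in OD. OS was lower in rats 1 and 3 and higher in rat 2, with differences of -2.50, 2.09 and -1.62 in rats 1, 2 and 3. Each of these genes exceeded the control limit on 1 of 3 OS arrays and 2 of 3 OD arrays.

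**Figure D2:**
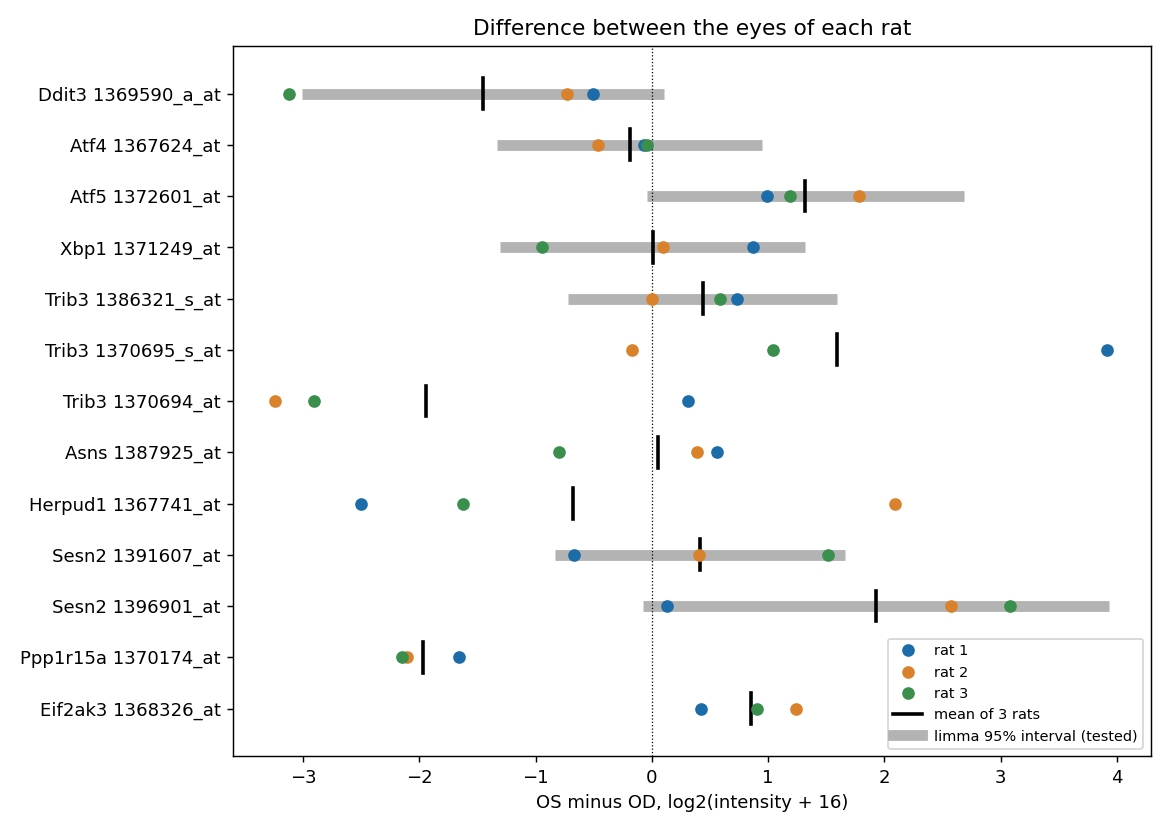
OS minus OD of each rat (coloured points) on the log2(intensity + 16) scale for the 13 probe sets, with the mean of 3 rats (black bar) and limma's 95% interval for the 7 tested ones (grey). Every grey interval spans 0, and the 3 points of Atf5 lie to the right of 0. The points of Ppp1r15a and of Trib3 1370694_at and 1370695_s_at have no measured size, since 1 eye was at or below the control limit on all 3 arrays.

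Seen together, the members did not move one way. OS was higher in 3 of 3 rats for 4 of the 13 probe sets (30.8%) and lower in 3 of 3 rats for 3 (23.1%), against 14.9% and 12.2% of all 31042 probe sets without a filter. The other 6 had mixed directions. Among the 4 higher ones, Trib3 (1386321_s_at) was level in rat 2 (0.003), and both Eif2ak3 values of rat 2 were below the control limit. Among the 3 lower ones, Atf4 differed by only -0.07 and -0.04 in rats 1 and 3, and every OS value of Ppp1r15a was below the limit. Values of the eyes did not overlap for 4 probe sets, 2 higher in OS (Atf5 and Sesn2 1396901_at) and 2 lower (Ddit3 and Ppp1r15a), 15.4% each, against 5.36% and 4.66% of all probe sets. Ppp1r15a counts here by its deposited values only, since no OS array exceeded its control limit and the bound on OD over OS lay under 1. Of the 7 tested probe sets, 2 lay higher and 1 lower without overlap, against 4.88% and 5.08% of all tested. Of the 2, Sesn2 1396901_at exceeded the control limit on 1 of 3 OD arrays and reached the brightness filter through its OS values. Its place among the tested probe sets thus depends on the eye where it was high. These counts are small and carry no test, and the members were chosen with earlier results of these data known. With each gene represented by its brightest probe set, 6 of the 10 genes had a higher and 4 a lower mean in OS, and their median difference was 0.03, against -0.02 for all 14217 genes. The genes higher in OS numbered 5 in rat 1, 7 in rat 2 and 4 in rat 3.

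Differences between the rats, taken over both eyes, were not called for any tested member. By limma's F test of the rat terms 0 of the 7 tested member probe sets passed an adjusted p of 0.05, where 2.51% of all tested did, and 0 passed at an unadjusted p under 0.05, against 13% of all. With 7 probe sets, these counts too lie near the shares of all tested and say little about the members. The smallest adjusted p was 0.598, for Trib3 (1386321_s_at), which was lowest in rat 2. Among the members with no test, Asns averaged log2 values of 8.41, 5.69 and 9.40 in rats 1, 2 and 3 and Eif2ak3 8.38, 6.11 and 9.02. For both the arrays of rat 2 were the lowest and lay below the control limits of that rat, which were the highest of all. Without the brightness filter the F test gave Asns an unadjusted p of 0.0375 and an adjusted p of 0.487.

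Likeness to a member was measured as Pearson's r of log2 values over the 6 arrays against the brightest tested probe set of 8593 other genes. For Atf4, chosen for its mean log2 value, the 5 most alike were Irak1bp1 (r = 0.993), Zfp68 (0.984), Wdr89 (0.983), Clk2 (0.980) and Suclg1 (0.979). For Ddit3 they were Abcf3 (0.998), Atpsckmt (0.993), Mtfr2 (0.993), Ankrd27 (0.991) and Snap29 (0.990). Over so few arrays, which share 3 animals, 73 genes exceeded r = 0.9 with Atf4 and 192 with Ddit3, so these names are a description only. No member was among these 10 genes.

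The wider pathway was read from 4 lists, in which a gene was represented by its brightest tested probe set. By limma 0 genes of the 4 lists passed the threshold, but only 1 of all 8594 tested genes did, so this count says little about the lists. Over all 8594 tested genes, 3982 had a higher and 4612 a lower mean in OS. In the sensors and eIF2 machinery list, 7 of 14 tested genes had a higher and 7 a lower mean in OS, with a median of -0.09 beside -0.07 over all 8594 tested genes (-0.17 leaving out rat 2, -0.14 leaving out rat 3). Eif2ak1, the gene of the haem-regulated eIF2 kinase, had 142.4, 577.8 and 1077.8 in OS and 866.2, 953.2 and 1590.5 in OD. It was lower in OS in each rat, by -1.25 ± 1.07 (SD, n = 3 rats, limma adjusted p = 0.753). It lay below the control limit on the OS array of rat 1, so the size is uncertain in that rat. Its other probe set (1387272_at) went the other way and was higher in OS in each rat, by 0.56 ± 0.32. Mbtps2 encodes the protease that completes the activation of ATF6, and had 41.5, 306.6 and 436.2 in OS and 451.2, 562.5 and 1584.5 in OD. Its groups did not overlap (-1.90 ± 1.09, limma adjusted p = 0.730), but 1 of 3 OS arrays exceeded the control limit, so the size is uncertain. Mbtps2 reached the brightness filter through its OD values, so its place among the tested genes depends on the eye where it was high. Ppp1ca, a catalytic subunit of protein phosphatase 1, differed by -1.14 ± 1.41 and Eif2b3, a subunit of the exchange factor for eIF2, by 1.03 ± 2.32, each with mixed directions. Atf6, a sensor of the endoplasmic reticulum, had 4291.2, 4528.3 and 1255.6 in OS and 3381.8, 1976.2 and 3346.8 in OD and differed by 0.04 ± 1.32.

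Endoplasmic reticulum chaperones and degradation genes had a median of -0.18 over 20 tested genes, 6 with a higher and 14 with a lower mean in OS, and the median was -0.05 without rat 2 and -0.74 without rat 3. Those with an unadjusted p under 0.05 were 2 lower and 0 higher genes, against 5.2% and 1.73% of all 8594 tested genes. The 2 were P4hb, a protein disulfide isomerase gene, and Derl1, a gene of the channel that exports misfolded proteins. P4hb had 98.8, 448.3 and 867.1 in OS and 758.4, 1773.8 and 1068.7 in OD. It was lower in OS in each rat, by -1.67 ± 1.25 (SD, n = 3 rats, limma adjusted p = 0.672), with 1 of 3 OS arrays above the control limit. Derl1 (1374581_at) had 638.2, 39.5 and 958.1 in OS and 1070.2, 1016.1 and 2161.1 in OD, a difference of -2.04 ± 1.90 (limma adjusted p = 0.590). In rats 1, 2 and 3 it differed by -0.73, -4.22 and -1.16. The OS value of rat 2 lay below the control limit, so the size is uncertain in that rat. The other Derl1 probe sets differed by 0.21 ± 1.54 and -0.20 ± 2.07. The chaperone gene Hspa5, whose product BiP holds the sensors inactive, had 885.4, 17.8 and 427 in OS and 558, 582.8 and 556.6 in OD. Its OD values were level and its OS values scattered widely around them (-1.29 ± 2.53, limma adjusted p = 0.826). Both Hspa5 values of rat 2 lay below their control limits, and the gene reached the brightness filter through its OD values. Calr, the calreticulin gene, differed by -1.33 ± 1.65, also with 1 of 3 OS arrays above the limit, so the sizes for P4hb and Calr are uncertain. Dnajb11, a cochaperone of BiP, was higher in OS in each rat, with 2495, 1450.7 and 577.2 in OS and 1058.8, 588.7 and 311.7 in OD (1.12 ± 0.23, limma adjusted p = 0.744). The lower ganglion cell markers in OS, and the 3′ to 5′ ratios of beta-actin (higher in OS in each rat) and Gapdh (mixed), stand beside these values, and their part in them was not tested.

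ATF4 and CHOP targets had a median of 0.33 over 16 tested genes, 13 with a higher and 3 with a lower mean in OS. Over all 8594 tested genes these numbers were 3982 and 4612. In 3 of 3 rats, 1 of the 16 was higher and 2 were lower in OS. At an unadjusted p under 0.05 by limma there were 0, against 6.94% of all tested genes. The medians in rats 1, 2 and 3 were -0.30, 0.13 and 0.31, and the median over the list moved to 0.07 when rat 1 was left out, to 0.21 when it was rat 2 and to -0.04 when it was rat 3. Of 28 targets on the array, 12 were too dim to test. Chac1, a glutathione-degrading enzyme gene downstream of CHOP, had 1856.2, 1245.5 and 4933.5 in OS and 1797.3, 2104.7 and 2955.4 in OD. It exceeded the control limit on all 6 arrays and differed by 0.01 ± 0.74. Atf3, a stress-induced factor known from axon injury, had 483.1, 173.2 and 2741.4 in OS and 607.2, 913.4 and 43.2 in OD. OS was lower in rats 1 and 2 and far higher in rat 3, so that the mean of 0.97 ± 4.08 rests on rat 3. The OD value of rat 3 and the OS value of rat 2 lay below their control limits, so the sizes are uncertain in those rats. Slc3a2, a subunit of amino acid exchangers, had 466.8, 352.6 and 532.1 in OS and 829.5, 766.8 and 1085.1 in OD. Its groups did not overlap and its 3 rats lay close together (-0.97 ± 0.14, limma adjusted p = 0.810). Psat1, of serine synthesis, differed by -1.15 ± 2.88 and Vegfa, a growth factor gene, by 0.59 ± 1.09, each with mixed directions. In rat 2 the OS value of Psat1 and the OD value of Vegfa lay below the control limit.

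Aminoacyl-tRNA synthetases, which charge tRNAs with amino acids and are known targets of ATF4, had a median of 0.22 over 10 tested genes, 6 with a higher and 4 with a lower mean in OS. The median was 0.15, -0.20 and 0.23 in rats 1, 2 and 3, and the list's median was 0.11 without rat 3 and 0.08 with the mean of each gene's probe sets. Eprs1, of the glutamyl-prolyl enzyme, had 850.6, 583.7 and 2373.6 in OS and 618.2, 71.7 and 771.3 in OD. It was higher in OS in each rat, by 1.61 ± 1.16 (SD, n = 3 rats, limma adjusted p = 0.697), and was the 1 gene of the 10 at an unadjusted p under 0.05, against 6.94% of all tested genes. The OD value of rat 2 lay below the control limit, so the size is uncertain in that rat. Eprs1's other probe sets were too dim to test, and none exceeded the limit on an OD array. Of them 1382040_at was higher in OS in each rat, while 1373418_at and 1382648_at had mixed directions. Nars1 was lower in OS, with 147, 80.2 and 479.3 in OS and 506.4, 516 and 517.7 in OD (-1.42 ± 1.20, limma adjusted p = 0.811), and 1 of 3 OS arrays exceeded the control limit. It reached the brightness filter through its OD values, so its place among the tested genes depends on the eye where it was high. Aars1 differed by -0.56 ± 0.83 and Sars1 by -0.50 ± 0.65, each with mixed directions.

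**Figure D3:**
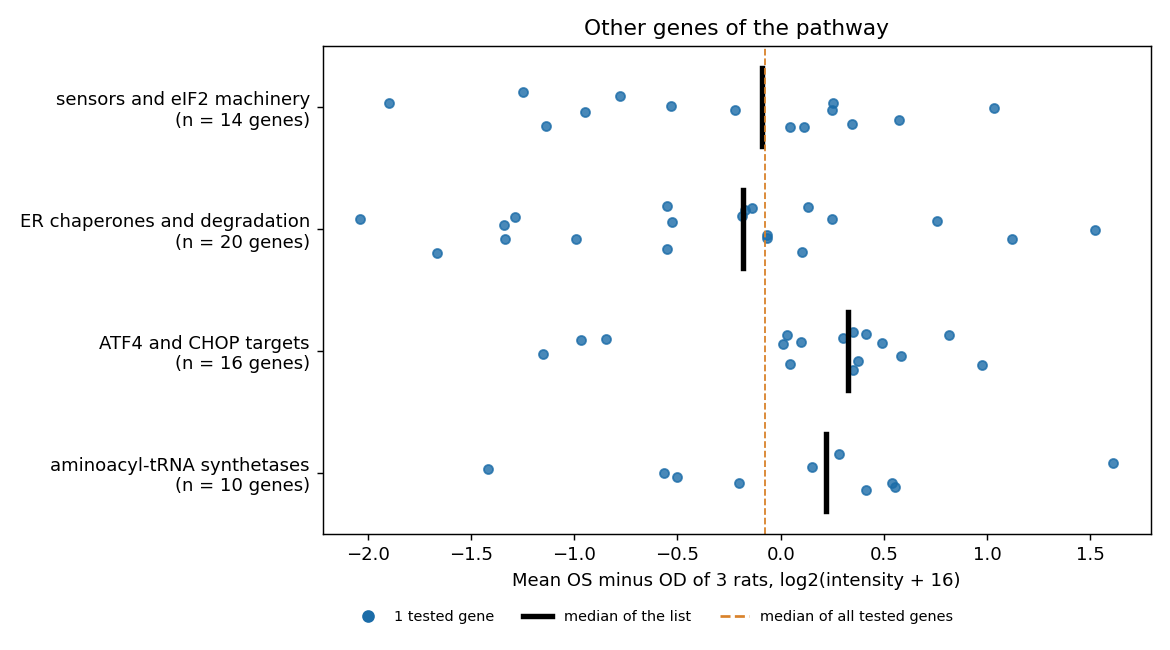
Mean OS minus OD over 3 rats on the log2(intensity + 16) scale, 1 point per tested gene, for 4 pathway lists, with each list's median (black bar) and the median of all tested genes (dashed line, -0.07). Genes of each list lie on both sides of the dashed line, and the medians run from -0.18 to 0.33.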

How the data were processed

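RNA amplified linearly from laser-captured cells was hybridised to 1-colour Affymetrix arrays, 1 per eye, per the labels' protocols. The deposited intensity values, 1 per probe set on a linear scale, were made with GCOS, as the submitters' processing notes name it, with a version not given in the sources used here. Trimmed means were equal on all arrays, so the values were taken as already scaled, and no further normalization was applied.

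The table held 31099 probe sets, 57 of them controls. Of the other 31042, the platform annotation gave 1 symbol for 20826, several for 436 and none for 9780. All 13 member probe sets matched a gene of the reference table by identifier, with the same symbol. Values were tested as log2(intensity + 16) with limma 3.58.1 in R 4.3.3 (eye and rat as fixed terms, eBayes with an intensity trend, two-sided, Benjamini-Hochberg over 15521 probe sets at or above the median mean log2 value); the fit was tested on simulated data. With 3 rats, the number of arrays limits the precision. Eyes pair within rats because they come from the same animal. Deviations from the eye means correlated between the eyes of a rat at 0.109, 0.122 and 0.326. The members and lists were chosen with earlier results of these data known. Named were all members, Hspa5, Atf3, Chac1, Ern1 (which had no probe set of 1 symbol) and Atf6, and from each list the 4 genes with the smallest unadjusted p. Alternatives were other offsets, filters, normalization, variance settings, blocks and leaving out each rat. Sequences are RefSeq's.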

Additional observations from a re-analysis of the deposited data

How the results depend on the processing

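No member probe set was called for OS minus OD under any of the 13 alternatives, or between rats under any of the 11 that allow that test, and no list gene was called for OS minus OD under any of the 13. Over all probe sets, the count of 2 for OS minus OD became 0 when the replicate block was dropped and 0 when it was a random replicate block. Quantile normalization, an offset of 1, the 75th percentile as filter and a prior variance without trend each gave 0 too. A robust prior gave 1, an offset of 64 gave 9, no filter gave 9, and leaving out 1 rat gave 18 to 59. Between rats the count of 390 was 152 with the filter at the 75th percentile, 0 without the intensity trend, 238 after quantile normalization, and 6 (without rat 3) to 620 (without rat 1) when a rat was left out. Among members with a test, Xbp1 ran from -0.43 to 0.48 and Sesn2 from -0.13 to 0.96 with 1 rat left out, so neither has a settled sign. Nor have Herpud1 (-2.06 to 0.23) and Asns (-0.21 to 0.47), which had no test. The median of the sensors and eIF2 machinery list was -0.22 without a filter and 0.04 with the filter at the 75th percentile. The replicate block could change no call of a member by being dropped, since over all probe sets no call remained without it. The filter on probe sets above the control limit on at least 3 arrays was chosen after seeing the data.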
